A study of Mus musculus with 16 samples.

Results

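Tissue of 8 mouse gliomas fell into a set of 3 tumours with a high level of Cd74 messenger RNA and a set of 5 with a low level, and the other genes of the array were compared between the sets. The tumours were chosen by their measured value of 1 Cd74 probe, the one with the highest mean in the authors' deposited log2 table. Tumours 2, 5 and 10 read 9 or more and tumours 3, 6, 7, 8 and 9 read less. These 8 tumours are 8 of the 16 samples. Just inside the threshold lay tumour 2 at 10.79, and just outside it lay tumour 3 at 7.82, so no tumour was near the value of 9. The split was made on a measured level of the same arrays and is no treatment or genotype. Cd74 itself is therefore described below without a test, and a difference in another gene says only that the gene differed along with Cd74.

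All tumours came from mice of a CreERTM model, in which tumour suppressor genes are knocked out, and were taken once neurological symptoms showed. CreERTM is a form of Cre recombinase that tamoxifen switches on. Both sets carry the same description, so nothing in the labels separates a Cd74-high from a Cd74-low tumour. The controls were 5 pieces of dorsal and 3 pieces of ventral brain from control mice, shown here as background only. Which genes were deleted, how old the mice were, their sex and the brain region of each tumour are not stated in the labels. The design text of the study counts 10 tumours, of which 8 were analysed here.

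Cd74 encodes the invariant chain, which binds newly made class II molecules of the major histocompatibility complex (MHC) in the endoplasmic reticulum, blocks their groove and steers them to the endosome. There proteases cut the invariant chain away, H2-DM helps to load a peptide and H2-O restrains H2-DM. Class II genes and Cd74 are switched on together by the coactivator Ciita, whose own expression is induced by interferon gamma. In the brain, class II is known from border macrophages, dendritic cells, activated microglia and infiltrating monocytes, and is scarce in resting tissue.

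The promoters of class II genes are known for a conserved pair of elements, the X box and the Y box, and are shown because many members of the class II list hold a match to 1 or both of them. H2-Aa is shown with a match to the Y box alone. Each line is a window of 71 bases upstream of the gene's start from RefSeq, build GRCm38.p6, written on the coding strand. Capitals mark a match to AACNNATG, a core of the X box, and to GATTGG, the inverted CCAAT of the Y box. H2-Aa lies at chr17:34287847-34287917 on the minus strand. H2-Eb1 lies at chr17:34305762-34305832, H2-DMb1 at chr17:34153084-34153154, H2-DMb2 at chr17:34145113-34145183 and H2-Ob at chr17:34238802-34238872, all on the plus strand.
H2-Aa: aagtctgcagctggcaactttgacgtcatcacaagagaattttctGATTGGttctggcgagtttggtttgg
H2-Eb1: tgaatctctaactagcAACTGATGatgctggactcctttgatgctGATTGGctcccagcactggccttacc
H2-DMb1: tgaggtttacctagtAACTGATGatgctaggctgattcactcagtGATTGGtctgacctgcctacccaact
H2-DMb2: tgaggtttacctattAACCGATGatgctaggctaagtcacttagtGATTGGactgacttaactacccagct
H2-Ob: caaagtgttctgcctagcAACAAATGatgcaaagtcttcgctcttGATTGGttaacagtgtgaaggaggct

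Of the 11 genes on the class II list, 9 had a promoter in the RefSeq table, with 10 promoters of 300 bases in all. Searched on both strands, GATTGG was found in 8 of these 9 genes and AACNNATG in 6. Both stood in that order, 15 to 25 bases apart, in 5 genes, namely H2-DMb1, H2-DMb2, H2-Eb1, H2-Eb2 and H2-Ob. Among all 32851 promoters of the table, 8.86% held AACNNATG, 16.1% held GATTGG and 14, or 0.0426%, held both in that order and spacing. The motifs were chosen with these sequences in view, and a match is a string of letters rather than a measured site. H2-DMb1 and H2-Ob, with measured differences of 1.68 and 0.16 below, both hold the pair.

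RNA was measured on Illumina bead arrays, 1 array per sample, and all levels are log2 signals after background correction and quantile normalization. The array detected 40.3% to 45.1% of the probes in a tumour, and the median intensity was 132.5 to 141.7. Across genes, which are not independent replicates, tumours 8 and 9 correlated at r = 0.982 and tumours 6 and 7 at 0.959, whereas the pairs of Cd74-high tumours correlated at 0.880 to 0.891. The Cd74-high tumours were thus no closer to each other than to Cd74-low tumours, with which they correlated at 0.864 to 0.922. The labels call every tumour independent but do not say which mouse each came from, so the number of mice behind the Cd74-low set is not given. Because tumours 8 and 9 lie so close, both low in Cd74, main results are also given with the pair averaged. The arrays lay on 3 chips, each with 1 Cd74-high tumour: tumour 10 with tumours 8 and 9, tumour 2 with tumour 3, and tumour 5 with tumours 6 and 7.

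Cd74 stood at 10.78, 12.38 and 10.99 in tumours 2, 5 and 10. In tumours 3, 6, 7, 8 and 9 it stood at 7.80, 6.93, 7.48, 6.39 and 6.80. The set means were 11.38 ± 0.87 (SD, n = 3) and 7.08 ± 0.56 (SD, n = 5), which the rule itself set apart. The other Cd74 probes differed by 4.28 and 3.02, against 4.30 for the probe of the split. The controls lay lower still, at 5.75 ± 0.43 in dorsal brain (SD, n = 5) and 5.94 ± 0.61 in ventral brain (SD, n = 3). In bulk tissue, fewer cells with a transcript and less of it in each cell cannot be told apart, here and in every result that follows.

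**Figure D1:**
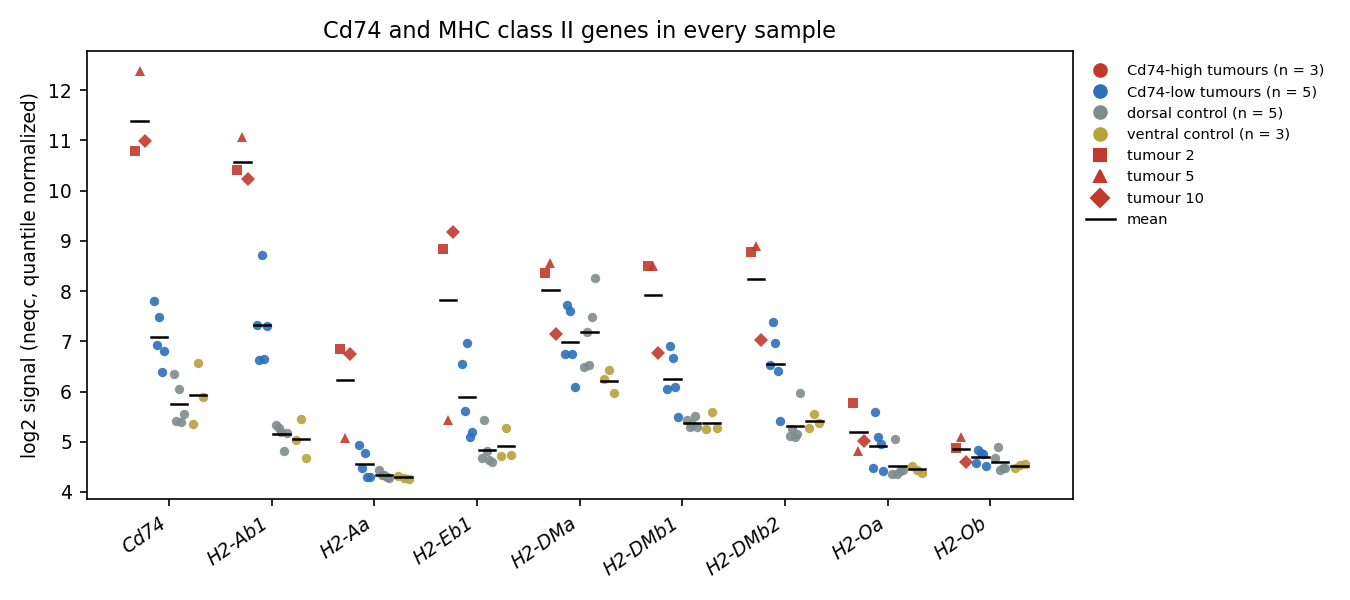
Log2 signal of Cd74 and 8 MHC class II genes in every sample, with 1 point per array and a bar at the mean of each set or control group. The Cd74-high tumours are red, with a symbol for each tumour, and H2-Ab1 keeps all 3 above all 5 Cd74-low tumours, whereas tumour 5 lies among the Cd74-low tumours for H2-Eb1.

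H2-Ab1, the beta chain of the classical class II molecule I-A, stood at 10.42, 11.06 and 10.22 in the Cd74-high tumours 2, 5 and 10. In the Cd74-low tumours 3, 6, 7, 8 and 9 it stood at 7.32, 6.63, 8.71, 6.64 and 7.30. All Cd74-high tumours lay above all Cd74-low tumours, and tumour 7 was the highest of the latter. The log2 difference was 3.25 ± 0.47 (SE), a 9.49-fold difference of the means, at an adjusted p of 0.0881 by limma with Benjamini-Hochberg adjustment over 10886 genes, which missed the threshold of 0.05. The other H2-Ab1 probes differed by 3.35 and 2.83. The differences within the 3 chips were 3.25, 3.10 and 3.39.

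H2-Aa, the alpha chain that pairs with H2-Ab1, stood at 6.85, 5.07 and 6.75 in tumours 2, 5 and 10 and between 4.29 and 4.93 in the Cd74-low tumours. The sets did not overlap, but tumour 5, which had the highest Cd74, lay only just above tumour 3. Its probe was detected in all 3 Cd74-high tumours and in 1 of the 5 others. The difference was 1.67 ± 0.41 (SE, adjusted p = 0.463). A gene was tested when its probe was detected in at least 3 of the 8 tumours. H2-Aa met this only with the Cd74-high set, so its test is no independent sign of a difference.

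H2-Eb1, the beta chain of the class II molecule I-E, stood at 8.83, 5.44 and 9.17 in tumours 2, 5 and 10. It stood at 6.54, 5.61, 6.97, 5.09 and 5.20 in tumours 3, 6, 7, 8 and 9. Tumours 2 and 10 lay above every Cd74-low tumour, and tumour 5 lay below 3 of them. The difference of 1.93 ± 0.84 (SE, adjusted p = 0.701) was 4.02 and 2.29 on the chips of tumours 10 and 2, and -0.86 on the chip of tumour 5.

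The loading chaperones were arranged the other way round. H2-DMb1 stood at 8.49, 8.51 and 6.76 in tumours 2, 5 and 10, against 6.06, 6.90, 6.67, 6.08 and 5.50 in tumours 3, 6, 7, 8 and 9. Tumour 10, rather than tumour 5, was the Cd74-high tumour that fell within the range of the others. H2-DMb2, a near copy of H2-DMb1 whose probe may read both, stood at 8.78, 8.89 and 7.03 in the Cd74-high tumours, with a difference of 1.69 ± 0.54 (SE, adjusted p = 0.643). For H2-DMb1 the difference was 1.68 ± 0.47 (SE, adjusted p = 0.605). H2-DMa, the partner chain, differed by 1.04 ± 0.46 (SE, adjusted p = 0.704), with tumour 10 at 7.14 below tumours 6 and 7 at 7.72 and 7.60.

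The chains of H2-O, which inhibits H2-DM, were near background, with H2-Oa detected in 2 of 3 Cd74-high and 3 of 5 Cd74-low tumours. H2-Oa differed by 0.29 ± 0.34 (SE, adjusted p = 0.884) and H2-Ob by 0.16 ± 0.20 (SE, adjusted p = 0.891). Ctss, the protease that makes the last cuts in the invariant chain, differed by 0.24 ± 0.43 (SE, adjusted p = 0.928), and H2-Eb2 by -0.04 ± 0.19 (SE, adjusted p = 0.976). Ciita was not detected in enough tumours to be tested.

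Of the 10 class II genes tested, 9 had a positive difference, none passed the adjusted threshold and 2 had non-overlapping sets, H2-Ab1 and H2-Aa. Of these 2, H2-Aa met the detection filter only with the Cd74-high set. Over all 10886 genes, 0.00919% passed the threshold, 2.05% had all Cd74-high above all Cd74-low tumours and 2.46% had all of them below. The median difference of the class II list was 1.36, beside -0.01 over all genes. It ranged from 1.06 without tumour 5 to 1.46 without tumour 7 and was 1.22 with tumours 8 and 9 averaged. On the chips of tumours 10, 2 and 5 it was 0.85, 1.80 and 0.37, so it was lowest for the tumour with the highest Cd74. These genes act with Cd74, so their list is no independent sign of what the split marks.

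Across all genes, 1 passed the threshold, the transcription factor gene Osr2. This zinc-finger factor is known from the mesenchyme of the palate, the limb and the kidney. Osr2 stood at 7.00, 7.24 and 6.62 in tumours 2, 5 and 10 and at 4.70, 4.44, 4.77, 4.43 and 4.53 in tumours 3, 6, 7, 8 and 9. It was detected in each Cd74-high tumour and in no Cd74-low tumour or control, where it lay between 4.39 and 4.56. The log2 difference was 2.38 ± 0.21 (SE, adjusted p = 0.0165 by limma). Since the Cd74-low tumours were at background, Osr2 was at least 4.30-fold higher in the Cd74-high tumours, measured against the lowest signal of a detected probe on each array. A gene entered the test when its probe was detected in at least 3 of the 8 tumours. Osr2 is among the 15 genes of the 10886 that were detected in every Cd74-high and in no Cd74-low tumour. It met the filter only through the Cd74-high set, so its test is no independent sign of a difference. The same holds for any gene detected in fewer than 3 Cd74-low tumours, so more than these 15 are affected. With no filter its adjusted p by limma was 0.0149. The Cd74-low values behind that p were still at background, with an SD of 0.15 (n = 5). The second Osr2 probe differed by 1.44 and was detected in 2 of the 3 Cd74-high tumours. Osr2 differed by 2.15, 2.30 and 2.64 within the chips of tumours 10, 2 and 5.

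The call of Osr2 did not hold under every alternative. With tumours 8 and 9 averaged its difference was 2.36 at an adjusted p of 0.0995. With chip as a block the difference was 2.37 at an adjusted p of 0.0757. Leaving out 1 tumour at a time kept the difference of Osr2 between 2.24 and 2.55, but its adjusted p was 0.0821 without tumour 3, 0.0539 without tumour 6, 0.106 without tumour 8 and 0.102 without tumour 9.

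At an unadjusted p under 0.05, limma gave 769 genes, or 7.06% of those tested. Without regard to a test, 97 genes, 0.891%, were at least 2-fold higher with all Cd74-high above all Cd74-low tumours, and 55, 0.505%, were at least 2-fold lower with all of them below. The 10 leading genes in each direction were taken from these by their p, so their differences describe the choice. All 20 had the same direction on each of the 3 chips. Their choice fixed this, as none had overlapping sets and each chip held tumours of both sets.

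Kdelr3, a receptor that returns escaped proteins to the endoplasmic reticulum, stood at 7.80, 8.13 and 8.20 in tumours 2, 5 and 10 and between 5.14 and 6.41 in the Cd74-low tumours. The gap between the sets exceeded the range of either set, and the difference was 2.47 ± 0.30 (SE, adjusted p = 0.0851). Ptgis, prostacyclin synthase, stood at 6.82, 7.66 and 7.26 against 4.47 to 5.45, a difference of 2.30 ± 0.31 (SE). Its Cd74-high tumours also exceeded every control, the highest of which read 6.43. Ptgis was detected in 2 Cd74-low tumours and met the detection filter only with the Cd74-high set. Aqp1, a water channel known from the choroid plexus, stood at 7.05, 7.81 and 8.50 against 4.89 to 5.74, with other probes at differences of 2.87 and 1.67.

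Nfatc4, a transcription factor that calcineurin activates, stood at 6.92, 7.52 and 6.76 in the Cd74-high tumours 2, 5 and 10 and between 5.03 and 5.67 in the others. Rcn3, a calcium-binding protein of the secretory pathway, stood at 5.91, 6.60 and 6.87 against 4.40 to 4.91. The difference was 1.79 for both genes, and neither had overlapping sets. Rcn3 was detected in 1 Cd74-low tumour and likewise met the detection filter only with the Cd74-high set. Pdgfrb, the platelet-derived growth factor receptor of pericytes and perivascular fibroblasts, stood at 6.43, 5.85 and 5.78 and was detected in no Cd74-low tumour. It was thus at least 2.25-fold higher in the Cd74-high tumours, through which alone it met the detection filter, so no test is given. In the controls Pdgfrb lay between these sets, at 4.87 to 5.44 in dorsal brain. Gjb2, a gap junction protein known from the leptomeninges, differed by 1.60, and Gper1, a membrane oestrogen receptor, by 1.34.

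**Figure D2:**
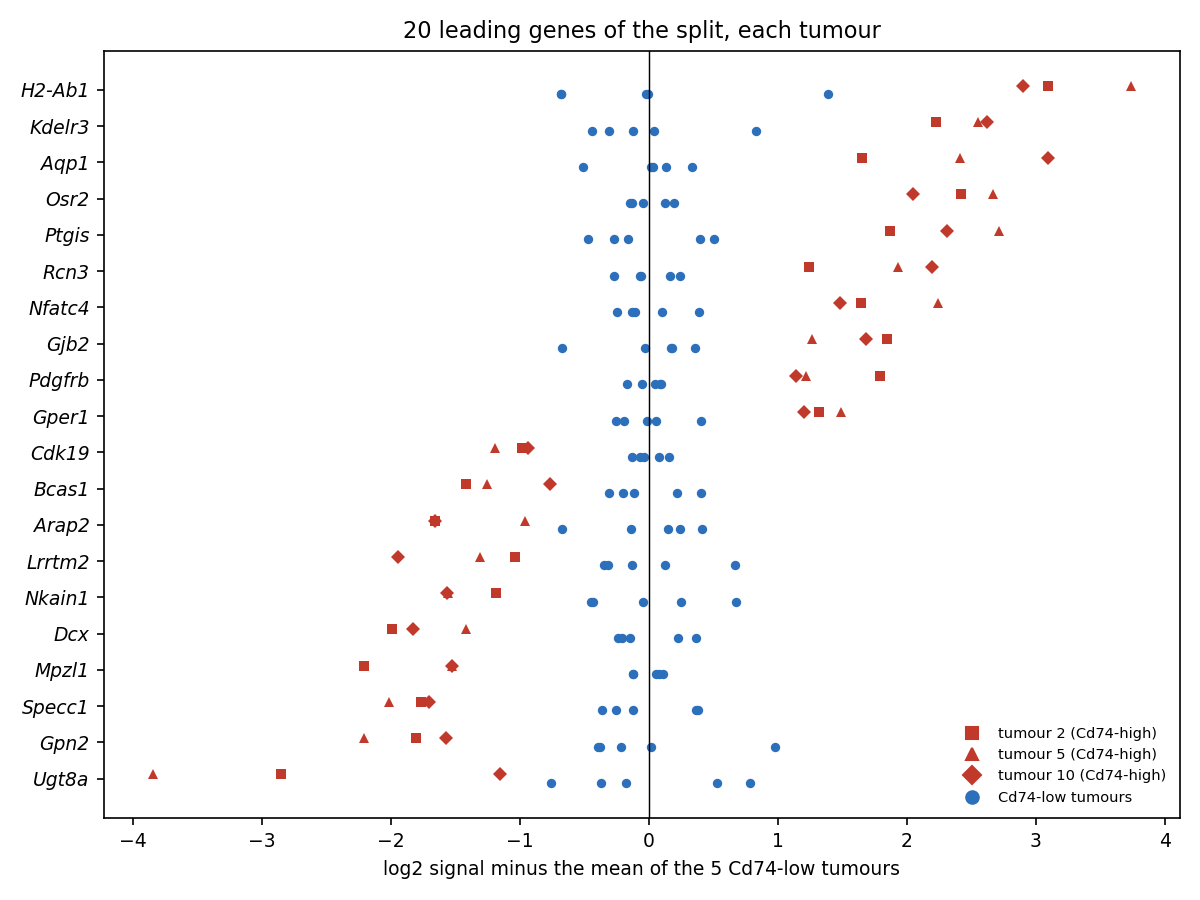
Log2 signal of the 20 leading genes in each tumour, minus the mean of the 5 Cd74-low tumours. Red symbols are tumours 2, 5 and 10 and blue points the Cd74-low tumours, and the red and blue points of every gene lie apart because the genes were chosen for that, with Ugt8a spread the widest among the Cd74-high tumours.

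The leading lower genes included neural and glial transcripts. Dcx, a microtubule protein of migrating neuroblasts, stood at 6.58, 7.15 and 6.74 in tumours 2, 5 and 10 and between 8.33 and 8.94 in the Cd74-low tumours. Its difference was -1.75 ± 0.24 (SE, adjusted p = 0.0851), and a second detected Dcx probe gave -1.60. The Cd74-high tumours lay near the controls for Dcx, at 5.67 to 7.05 in dorsal and 6.52 to 6.83 in ventral brain. Ugt8a, which makes the myelin lipid galactocerebroside, stood at 7.50, 6.51 and 9.20 against 9.59 to 11.14, a difference of -2.62 ± 0.59 (SE, adjusted p = 0.459). Tumour 10 was close to the Cd74-low tumours for Ugt8a, and the chip differences were -0.88, -2.09 and -4.50 for tumours 10, 2 and 5. Another Ugt8a probe, detected in all 5 Cd74-low tumours and in no Cd74-high tumour, differed by -0.83. Bcas1, a marker of newly forming oligodendrocytes, differed by -1.15, and Lrrtm2, a synaptic adhesion protein, by -1.43.

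Mpzl1, a cell-surface protein of the immunoglobulin family, stood at 6.11, 6.79 and 6.79 against 8.19 to 8.43, a difference of -1.75 ± 0.22 (SE, adjusted p = 0.0851). The SD of the Cd74-low tumours was 0.12 (n = 5) for Mpzl1, and all tumours lay above the dorsal controls at 4.34 to 4.71. Specc1, a coiled-coil protein, differed by -1.83, Gpn2, a small GTPase, by -1.86, Nkain1, a partner of the sodium pump, by -1.44 and Arap2, a regulator of small GTPases, by -1.43. Cdk19, a kinase of the Mediator complex, stood at 9.07, 8.86 and 9.12 against 9.93 to 10.21. Its sets were close in level but tight, and its difference was -1.04 ± 0.18 (SE, adjusted p = 0.217). Other detected Cdk19 probes differed by less, at -0.61 and -0.47, as did another detected Specc1 probe, at -0.62.

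The genes most like Cd74 over the 8 tumours, by Pearson correlation and as a description, were Osr2 at r = 0.984, Nfatc4 at 0.979, Ptgis at 0.959, Rps3a1 at 0.958, H2-Ab1 at 0.955, Fzd7 at 0.954, Rarres1 at 0.950, Itgae at 0.944, Asphd2 at 0.943 and Mapk13 at 0.941. With Cd74 in 2 separate clusters, these values mostly restate the split. H2-Ab1 was the class II gene among them. Fzd7, a Wnt receptor, stood at 7.36, 8.33 and 7.69 in tumours 2, 5 and 10 and between 6.17 and 6.70 in the others, following the order of Cd74 in the Cd74-high set. Itgae, the integrin chain CD103 of tissue-resident T cells and some dendritic cells, stood at 5.86, 5.90 and 5.91 against 4.79 to 5.14.

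Cells that can carry class II were then examined through marker lists. Of 16 microglia genes tested, 11 had a positive and 5 a negative difference, none had non-overlapping sets, and the list median was 0.28. Csf1r, the receptor that microglia need to survive, stood at 8.47, 7.31 and 6.55 in tumours 2, 5 and 10 and at 6.46, 7.92, 7.97, 7.20 and 5.70 in tumours 3, 6, 7, 8 and 9, so tumour 2 lay above every Cd74-low tumour and tumours 5 and 10 lay within their range. Cx3cr1, the fractalkine receptor of microglia, differed by -0.34 ± 1.01 (SE, adjusted p = 0.959). Tmem119, a marker of resident microglia, differed by 0.23 ± 0.62 (SE, adjusted p = 0.956). The microglia median was 1.22 on the chip of tumour 2, 0.02 on that of tumour 10 and -0.69 on that of tumour 5, and it was -0.15 without tumour 2, -0.15 without tumour 9, 0.55 without tumour 6, 0.61 without tumour 7 and 0.90 without tumour 10. On balance, tumour 5, which had the highest Cd74, thus had lower microglia transcripts than its chip neighbours.

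Monocyte and macrophage genes had a median difference of 0.90 over 14 genes, of which 13 were positive and 2, or 14.3%, had all Cd74-high above all Cd74-low tumours, beside 2.05% of all genes. Ms4a7, a membrane protein of border and infiltrating macrophages, stood at 8.27, 7.60 and 7.56 in the Cd74-high tumours 2, 5 and 10. In the Cd74-low tumours 3, 6, 7, 8 and 9 it stood at 6.25, 4.87, 6.77, 4.76 and 5.19, and the difference was 2.24 ± 0.49 (SE, adjusted p = 0.41). All Cd74-high tumours were above all others, and on the 3 chips Ms4a7 differed by 2.59, 2.02 and 1.78. Mrc1, the mannose receptor CD206 of border macrophages, stood at 8.12, 6.38 and 6.26 against 4.60 to 5.82. Lyz2, the lysozyme of macrophages and neutrophils, overlapped, with tumour 10 at 9.66 below 4 of the Cd74-low tumours. Without tumour 2 the median of this list was 0.42, and without tumour 10 it was 1.32. On the chips of tumours 10, 2 and 5 it was 0.78, 1.90 and 0.19.

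Fc receptor and complement genes had a median of 1.35 over 7 genes tested of 15 listed, with no non-overlapping set. Fcgr4, an activating Fc receptor, stood at 10.85, 9.55 and 9.09 in tumours 2, 5 and 10, and tumour 7 at 9.11 reached that range. Without tumour 2 the list median was 0.63, and on the chips of tumours 10, 2 and 5 it was 0.96, 3.10 and -0.39. Dendritic cell genes had a median of -0.26 over 6 genes tested of 13, with no non-overlapping set. It was -0.10 with tumours 8 and 9 averaged, and -0.15, -0.13 and -0.07 without tumour 5, 8 or 9. Cd86, a costimulatory molecule of antigen-presenting cells, overlapped between the sets with a difference of 0.77 ± 0.57 (SE, adjusted p = 0.81). None of the 10 listed B cell genes was detected in enough tumours to be tested.

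The T and NK cell list, with 5 genes tested of 20, had a median of 0.42, which was -0.22, 0.73 and -0.04 on the chips of tumours 10, 2 and 5. It was 0.02, 0.08 and 0.11 without tumour 2, 3 or 7 and 0.72 without tumour 6. Cd3e, a chain of the T cell receptor complex, stood at 5.08, 5.82 and 4.86 in tumours 2, 5 and 10 and was undetected in every Cd74-low tumour. Its probe was also detected in all 3 ventral controls, at 4.86 to 5.23, and in no dorsal control. Cd3e was at least 1.33-fold higher in the Cd74-high than in the Cd74-low tumours. It met the detection filter only through the Cd74-high set, so no test is given. Thy1, a surface protein of T cells that neurons also carry, differed by -0.34 ± 1.03 (SE, adjusted p = 0.96).

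Interferon gamma is the cytokine best known to induce class II. Ifngr1, a chain of its receptor, stood at 8.90, 8.86 and 8.25 in tumours 2, 5 and 10 and between 7.11 and 8.18 in the others. The Ifngr1 sets did not overlap, and the difference was 0.98 ± 0.28 (SE, adjusted p = 0.612). Ifngr2, the other chain, had the opposite sign, with a difference of -0.52 ± 0.31 (SE, adjusted p = 0.768). Cxcl9, a T cell chemokine that interferon gamma induces, stood at 5.71, 8.45 and 5.97 against 4.40 to 5.33, highest in the tumour with the highest Cd74. Ifi47, an interferon-inducible GTPase, differed by 1.00. Of 15 genes tested, 11 were positive and 3 had non-overlapping sets, which is 20% beside 2.05% of all genes, and the median was 0.39, or 0.21 without tumour 2. Type I interferon genes had a median of -0.06 over 14 genes with no non-overlapping set, and it was -0.26 without tumour 2 and 0.16 without tumour 10.

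MHC class I genes, which present peptides from inside the cell, had a positive difference in all 15 genes tested. Their median was 0.50, beside -0.01 over all genes. Only Tap2, a chain of the peptide transporter, had non-overlapping sets, at 8.92, 9.19 and 8.84 against 6.70 to 8.78. That is 6.67% of the list, beside 2.05% of all genes with all Cd74-high above all Cd74-low tumours. B2m, the light chain of class I, overlapped with a difference of 0.22 ± 0.42 (SE, adjusted p = 0.93). The class I median was 1.44 on the chip of tumour 2 and 0.07 and -0.04 on the chips of tumours 10 and 5, and it was 0.17 without tumour 2 and 0.84 without tumour 10. Of the tumours left out in turn, tumour 2 thus lowered the class I median the most. The mean level of the 15 genes was 9.20, 8.93 and 8.25 in tumours 2, 5 and 10. In the Cd74-low tumours it was 7.83 to 8.89, so tumour 5 also lay above them and tumour 10 lay within their range.

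**Figure D3:**
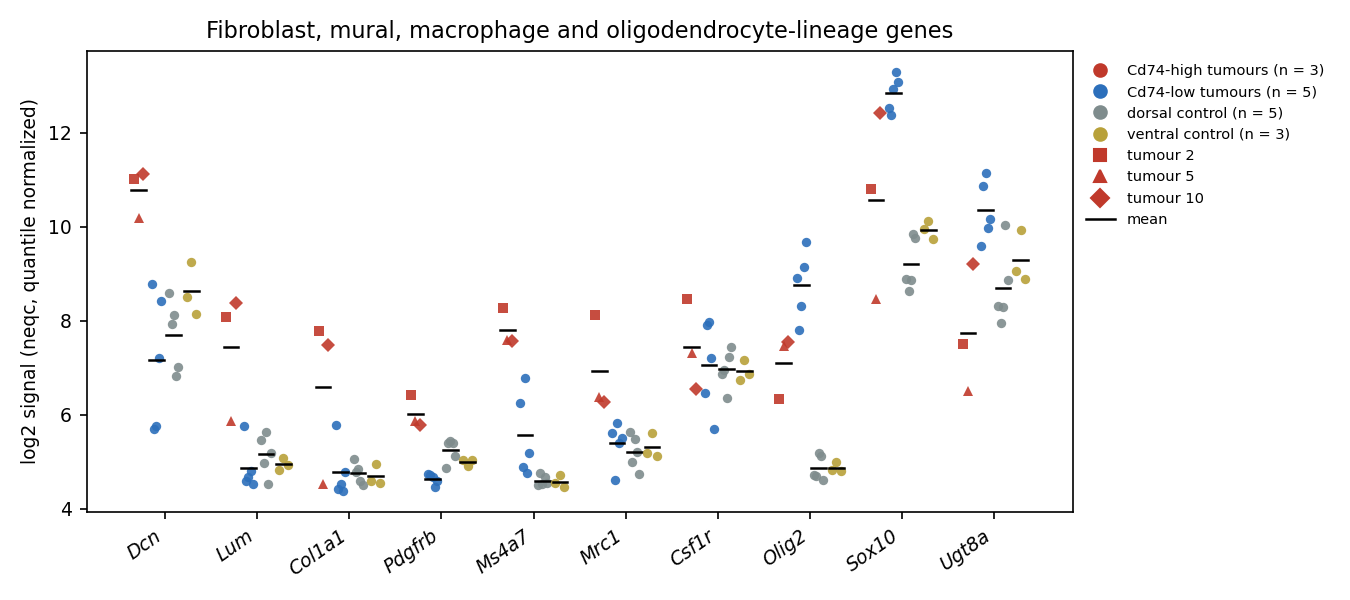
Log2 signal of 10 fibroblast, mural, macrophage and oligodendrocyte-lineage genes in every sample, with 1 point per array and a bar at each mean. Dcn and Ms4a7 keep all 3 Cd74-high tumours above all Cd74-low tumours, Col1a1 does so for tumours 2 and 10 only, and Csf1r overlaps.

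Among fibroblast and matrix genes, Dcn differed by more than H2-Ab1. Dcn, the collagen-binding proteoglycan decorin, stood at 11.02, 10.19 and 11.12 in tumours 2, 5 and 10 and at 8.78, 5.69, 5.76, 7.21 and 8.41 in tumours 3, 6, 7, 8 and 9. The sets did not overlap, and the difference was 3.60 ± 0.75 (SE, adjusted p = 0.381). A second detected Dcn probe gave 3.00. Lum, the related proteoglycan lumican, stood at 8.08, 5.86 and 8.37 against 4.53 to 5.76, with tumour 5 just above tumour 3. Col1a1, the main chain of type I collagen, stood at 7.78, 4.53 and 7.49 against 4.38 to 5.78, so tumour 5 lay inside the Cd74-low range and its probe was not detected there.

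The meningeal and fibroblast list had a median of 1.27 over 8 genes, of which 6 had a positive and 2 a negative difference. The 2 lower genes were Pdgfra, at -1.52 by its brighter probe, and Igf2, at -0.94. Dcn and Lum, or 25% of the list, had all Cd74-high above all Cd74-low tumours, beside 2.05% of all genes. Its medians were 2.52 and 2.01 on the chips of tumours 10 and 2 and 0.08 on that of tumour 5, and leaving out tumour 5 gave 2.06 and tumour 10 gave 0.80. Where only probes detected in all 8 tumours were kept, the median was 0.19. The matrix list of 15 genes had a median of 0.93, which was 1.46, 1.55 and -0.48 on the chips of tumours 10, 2 and 5. Lox, which cross-links collagen, stood at 8.38, 5.05 and 8.97 in tumours 2, 5 and 10 against 5.56 to 5.80. Tumours 2 and 10 were far above the narrow range of the Cd74-low tumours for Lox, and tumour 5 was below it. Without tumour 2 the matrix median was 0.29, and without tumour 5 it was 1.65.

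Vessel genes were also higher on average in the Cd74-high set, mainly through tumour 2. The endothelial median was 0.65 over 13 genes, of which 11 were positive. For 1, Tek, or 7.69%, all Cd74-high lay above all Cd74-low tumours, beside 2.05% of all genes. Emcn, an endothelial sialomucin, stood at 9.36, 7.01 and 7.80 in tumours 2, 5 and 10 against 5.80 to 7.19, and Flt1, a receptor for vascular endothelial growth factor, at 9.08, 9.40 and 7.71 against 6.87 to 8.21. The endothelial median was 0.01 without tumour 2, 1.11 without tumour 5 and 1.15 without tumour 10. The mean level of these 13 genes was 6.84 to 8.49 in the Cd74-high tumours, 6.50 to 7.22 in the Cd74-low tumours and 6.90 to 7.31 in dorsal brain.

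Genes of the oligodendrocyte lineage were lower on average in the Cd74-high set. Of 15 progenitor genes tested, 14 had a negative difference, and the list median was -0.78, beside -0.01 over all genes. For 1, Olig2, or 6.67%, all Cd74-high lay below all Cd74-low tumours, beside 2.46% of all genes. Olig2, the transcription factor that specifies the lineage, stood at 6.32, 7.46 and 7.54 in tumours 2, 5 and 10 and at 8.90, 7.81, 8.31, 9.14 and 9.68 in tumours 3, 6, 7, 8 and 9, a difference of -1.66 ± 0.46 (SE, adjusted p = 0.596). Its level in every tumour was above the dorsal controls at 4.61 to 5.19. Sox10, which keeps the lineage identity, stood at 10.80, 8.47 and 12.41 against 12.39 to 13.30, so tumour 10 reached the Cd74-low range. Pdgfra, the growth factor receptor of progenitors, differed by -1.52 with 1 probe and by 0.23 with a second, dimmer one. The progenitor median was 0.19, -0.79 and -1.82 on the chips of tumours 10, 2 and 5, so it was positive for tumour 10. Without tumour 10 it was -1.44 and without tumour 5 -0.49.

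Myelin genes had a median of -1.56 over 10 genes, 9 of them negative, beside a median of -0.01 over all genes. For Ugt8a alone, or 10%, all Cd74-high lay below all Cd74-low tumours, beside 2.46% of all genes. Mbp, the basic protein of compact myelin, stood at 11.86, 7.33 and 9.97 in tumours 2, 5 and 10 and at 10.88, 13.34, 14.02, 9.90 and 8.66 in tumours 3, 6, 7, 8 and 9. The sets overlapped widely, with tumours 6 and 7 high and tumour 5 low. All of these lay on chip 3, where the list median was -4.82, beside 0.57 and 0.45 on the other chips. The median was -0.83 without tumour 5, -1.02 without tumour 6 and -0.86 without tumour 7.

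Astrocyte genes had a positive difference in 15 of 15 genes and no non-overlapping set, with a median of 0.57, beside -0.01 over all genes. Gjb6, a gap junction protein of astrocytes, stood at 10.38, 9.94 and 7.78 in tumours 2, 5 and 10, and tumour 7 at 8.90 exceeded tumour 10. Gfap, the intermediate filament of astrocytes, differed by 0.42 ± 1.09 (SE). The astrocyte median was 0.36, 0.88, 1.12, 0.35 and 0.89 without tumour 2, 5, 7, 9 or 10. Cell cycle genes had a median of 0.26 over 20 genes, with 1.18 on the chip of tumour 10 and -0.98 on that of tumour 2, and no non-overlapping set. It was 0.04 to 0.09 without tumour 8, 9 or 10 and 0.49 without tumour 3.

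Targets of RAS and MAP kinase signalling had a median of -0.73 over 11 genes, of which 9 were negative. Spry4, a feedback inhibitor of the pathway, stood at 5.14, 6.70 and 6.48 in tumours 2, 5 and 10 and at 8.33, 8.73, 5.46, 8.27 and 8.85 in tumours 3, 6, 7, 8 and 9. Tumour 7 was apart from the other Cd74-low tumours and lay within the Cd74-high range. Dusp6, the phosphatase that inactivates ERK, stood at 10.51, 11.20 and 10.76 against 12.23, 12.10, 10.40, 12.61 and 12.24, and tumour 7 lay below all others. Without tumour 2 the median was -0.22. Immediate early genes such as Fos, with a difference of -1.45, had a median of -0.47 over 10 genes. It was -0.995, -0.44 and 0.04 on the chips of tumours 10, 2 and 5, and -0.75 without tumour 7.

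**Figure D4:**
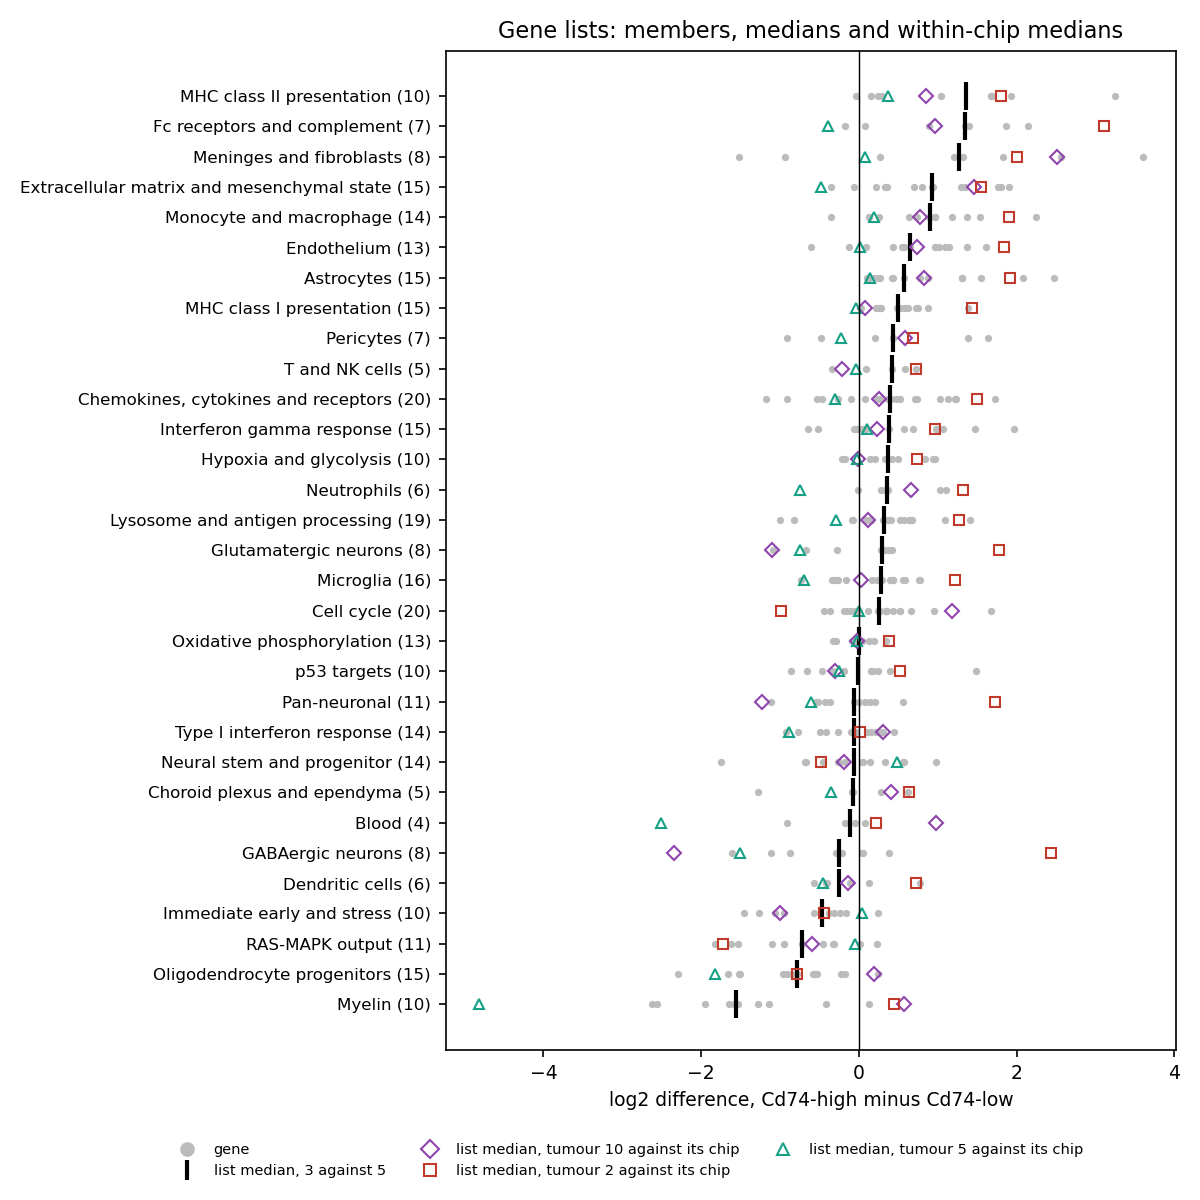
Log2 difference between the Cd74-high and the Cd74-low tumours for 31 gene lists, with the number of tested genes in parentheses, a grey point per gene and a black bar at the list median. Open symbols are the list medians of tumours 10, 2 and 5 against the Cd74-low tumours of their own chip, and for most immune, vessel and matrix lists the value of tumour 2 is high and that of tumour 5 is near or below 0.

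Of the 31 lists, 8 had a median of at least 0.5 and 3 a median of -0.5 or lower. With tumours 8 and 9 averaged these numbers were 7 and 4. The class I median then fell from 0.50 to 0.46 and the blood median from -0.11 to -1.01. With median scaling the class I median was 0.44. No list holds a gene that passed the threshold, as Osr2 is in none of them. The 8 higher lists were class II, class I, Fc receptor and complement, macrophage, fibroblast, matrix, vessel and astrocyte genes. The 3 lower lists were oligodendrocyte progenitor, myelin and RAS and MAP kinase genes. The part of these lists in each other's differences was not tested. The mean level of the monocyte and macrophage list was 8.07 to 9.52 in the Cd74-high tumours and 7.13 to 8.13 in the Cd74-low tumours. That of the microglia list was 7.31 to 9.28 and 6.32 to 9.33, and that of the meningeal and fibroblast list 7.04 to 9.44 and 7.26 to 7.81. Of the defining markers on these lists, P2ry12 of microglia, Ccr2 and Cd163 of monocytes and macrophages, and Col3a1 and Ogn of fibroblasts were detected in too few tumours to be tested.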

How the data were processed

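Total RNA from 16 brain samples was measured on Illumina bead arrays. Per the file headers, the authors deposited a table of bead intensity that was neither normalized nor background-subtracted, with a detection p-value per probe and array, for 45281 probes. A table of log2 values deposited by the authors covers 38563 probes, with its processing not given in the sources used here. It correlated with the log2 values computed here at r = 0.999997 or more on every array, across probes, and served only to split the tumours and as an alternative.

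Intensities of all 16 arrays were processed with neqc (limma 3.58.1, R 4.3.3; offset 16). Probes with a detection p-value under 0.05 in at least 3 of the 8 tumours stayed in, 20926 in all. Symbols came from the platform table and, through Entrez IDs, from RefSeq. Of the probes, 32093 had 1 symbol and 16 several, and 4392 kept probes without a single name were left out. Each gene was read from its brightest probe by the mean over 16 arrays, and 3925 of the 10886 genes had other kept probes. limma (lmFit, eBayes) compared 3 with 5 tumours, with p-values adjusted by Benjamini-Hochberg over these genes and all Cd74 probes excluded. The smallest p an exact two-sided permutation of 3 against 5 can give is 0.0357, so no such test was made.

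The members of the sets and the 32 gene lists were chosen with earlier results of these data known. Of 490 listed genes, 354 were tested. Named genes were the leading 10 in each direction (called genes first, then by unadjusted p among those at least 2-fold different, detected throughout the higher set and without overlap), the class II list, the strongest and brightest members of each other list, and the 10 most correlated with Cd74. The rule gave 118 genes, and 27 more were named after their values were seen. Signals near background and the number of arrays limit precision. The procedure was tested on simulated data. Alternatives covered background correction, normalization, filters, probes, samples, chip, weights and each tumour left out.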

Additional observations from a re-analysis of the deposited data

Results flagged for a closer look

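Of the 145 named genes, 10 had a Cd74-low tumour far from the other 4, by the gap to its nearest neighbour relative to the range of the set. Chance alone gives such a gap in about 1 in 20 sets of values, so several of the 145 genes would show it by chance. Lum, Col1a1, Tap2, Spry4 and Dusp6 were named after their values were seen, so that rate does not hold for them. The Cd74-high set of 3 is too small for this check.

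Tumour 7 was low in 4 genes of growth factor and immediate early signalling. Dusp5, a phosphatase of ERK, stood at 5.27 beside 6.33 to 6.56 in the other Cd74-low tumours, Egr1 at 9.26 beside 12.37 to 13.39, Spry4 at 5.46 beside 8.27 to 8.85 and Dusp6 at 10.4 beside 12.10 to 12.61. Tumour 3 was high in the matrix genes Lum, at 5.76 beside 4.53 to 4.79, and Col1a1, at 5.78 beside 4.38 to 4.77, and low in Tap2, at 6.70 beside 8.22 to 8.78. Tumour 6 was high in Alas2, the first enzyme of haem synthesis in red cells, at 9.99 beside 4.26 to 5.15, and in Fzd7, at 6.70 beside 6.17 to 6.32. Tumour 9 was high in Ttr, transthyretin of the choroid plexus, at 11.89 beside 4.61 to 5.92.

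When each probe was tested separately, 4 of 20923 passed the adjusted threshold, and 3 of them have no gene name in the table used. ILMN_1230696 differed by 2.68, ILMN_1249975 by 2.87 and ILMN_2722893 by 3.72, at adjusted p-values of 0.0321, 0.0391 and 0.0321 by limma. ILMN_2722893 stood at 7.35, 8.79 and 9.12 in tumours 2, 5 and 10 and between 4.47 and 4.94 in the Cd74-low tumours. All 3 probes were detected in every Cd74-high tumour and in no control, and ILMN_1249975 in no Cd74-low tumour. That probe met the detection filter only through the Cd74-high set. ILMN_1230696 and ILMN_2722893 were each detected in 1 Cd74-low tumour, too few to meet the filter without the Cd74-high set. The p-values of all 3 probes are thus no independent sign of a difference.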

How the results depend on the processing

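The 20 leading genes kept their direction under every alternative that tested them, and 15 remained where a probe had to be detected in all 8 tumours, a filter that removes Osr2. As these genes were chosen for sets without overlap, leaving out or averaging tumours and comparing within chips could not change their direction. The number of genes past the threshold, 1 as reported, was 0 with tumours 8 and 9 averaged, 0 with median scaling, 0 with the filter on all 8 tumours, 0 with chip as a block, 4 without background correction, 4 without a filter, 5 with Cd74 as a continuous variable and 73 with all 16 arrays in the fit, of which 42 were higher and 31 lower. Leaving out 1 tumour at a time gave 0 to 8, with 0 without tumour 3, 8 or 9, 7 without tumour 2, 8 without tumour 5 and 2 without tumour 7. Without tumour 6 the 1 gene was Kdelr3. It was 1 with the authors' log2 values, with normalization on the tumours only, with the filter over 16 arrays, with array weights and with a trended prior, Osr2 each time. The lists with a median of 0.5 or more in size numbered 11 as reported, 17 within chip 1, 25 within chip 2, 9 within chip 3 and between 9 and 18 with 1 tumour left out, 18 of them without tumour 10. Of these lists, 8 were higher and 3 lower as reported, 12 and 5 within chip 1, 22 and 3 within chip 2, and 0 and 9 within chip 3. Without background correction the class II median was 0.61 and the fibroblast median 0.63. With Cd74 as a continuous variable the matrix median was 0.53. Median scaling moved the median of all genes by -0.05. The causes of these changes were not tested. No paired analysis was possible because the sets share no tumour number. The match by chip was covered by the fit with chip as a block and by the differences within chips. Near background, as for Osr2, H2-Oa and H2-Ob, signal limits what can be seen.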

Other observations

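Neuronal and blood transcripts varied widely among the Cd74-high tumours, and the sets overlapped. The median of 8 GABAergic neuron genes was -2.34, 2.44 and -1.51 for tumours 10, 2 and 5 against their chips. Slc32a1, the vesicular transporter of GABA, stood at 9.16, 6.96 and 4.41 in tumours 2, 5 and 10. In the Cd74-low tumours 3, 6, 7, 8 and 9 it stood at 6.71, 8.83, 10.38, 8.04 and 8.32. Tumour 10 was thus the lowest of the 8 tumours and tumour 2 the second highest.

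Hbb-bt, a beta globin, stood at 11.66, 9.60 and 6.81 in the Cd74-high tumours 2, 5 and 10 and at 11.48, 14.61, 9.33, 6.13 and 5.46 in tumours 3, 6, 7, 8 and 9. Igf2, a growth factor of the meninges and the fetus, stood at 12.80, 8.53 and 12.24 in the former and at 10.78, 14.51, 14.61, 10.57 and 10.16 in the latter. For Igf2, tumour 5 was the lowest of all 8, and its chip neighbours, tumours 6 and 7, were the highest. Fcer1g, the signalling chain shared by activating Fc receptors, was detected in 2 of 3 Cd74-high and 2 of 5 Cd74-low tumours, with an SD of 4.19 (n = 3) and 3.26 (n = 5) around means of 8.95 and 6.80.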
